A study of Mus musculus with 3 samples.

Results

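The genes described here are 10 regulators of heart chamber identity, Nr2f1, Nr2f2, Hey1, Hey2, Irx1, Irx2, Irx3, Irx4, Irx5 and Prdm16, among 21631 protein-coding genes on the mouse autosomes and X chromosome. They were followed in a map of FOG2 binding in the ventricles of E12.5 mouse embryos (E counts days of gestation). A FOG2 peak was assigned to one of them when its summit, the highest point of the peak, lay within 100 kb of that gene's body and no other protein-coding gene body was nearer. By this rule 11 of the 6166 deposited peaks belonged to the 10 genes.

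FOG2, encoded by Zfpm2, is a zinc finger cofactor that binds GATA factors. The embryos were homozygous for a tagged FOG2 allele and for the biotin ligase BirA at Rosa26 (Fog2flbio/flbio;Rosa26BirA/BirA in the labels' protocol), so that FOG2 carried biotin and could be recovered on streptavidin beads after fixation in 1% formaldehyde for 10 minutes. The characteristics of the same samples give the genotype as WT and the antibody as FOG2 for the pulldown and none for the input, which differs from that protocol. The strain background was not stated. There were 2 FOG2 pulldown libraries, each from about 20 pooled ventricles, and 1 input library from the same tissue. No atrial sample is part of the data used here, and the control was input, not a pulldown from embryos without the tagged allele.

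The peaks were called on the pooled pulldown, so no value below has a spread between replicates, and no test between samples was possible. Fold is the authors' ratio of pulldown to control at a summit, with a median of 6.39 and quartiles of 5.41 and 8.66 over all peaks. Pulldown fragments at a summit were solved from its fold and −log10 p. Their exact 95% Poisson intervals cover counting error of the pulldown only. The control level, with a median of 0.828 over all peaks, has no interval here, and neither do folds and ranks by fold. The median summit rested on 12 fragments. Lists of marker genes were chosen with earlier results of these data known, so they are no independent check. Over all protein-coding genes 13.5% had a summit. The marker lists gave a summit at 6 of 6 cardiomyocyte genes, 2 of 4 endothelial genes, 2 of 4 epicardial genes and 0 of 3 blood genes. Their territories, the sequence within 100 kb for which that gene is the nearest one, had medians of 40.5, 157.5, 136 and 18 kb in that order, against 44 kb over all genes. At the mean density the 3 blood genes would hold 0.476 summits, so their 0 says little. The atrial and ventricular marker lists, which include members, gave 3 of 6 and 3 of 4 genes, with median territories of 49 and 81 kb. Occupancy is not expression, and these counts do not measure which cells were present.

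The working heart muscle of the atria and of the ventricles follows separate gene programmes. Nr2f2 and Nr2f1 encode the COUP-TF nuclear receptors, and Nr2f2 is known to hold atrial muscle in the atrial state. Hey1 and Hey2 encode transcriptional repressors that act downstream of Notch. Hey1 is known for its expression in atria and Hey2 for its expression in the compact muscle of the ventricles, where it restrains atrial genes. The Iroquois homeobox genes lie in separate clusters, Irx1, Irx2 and Irx4 in one and Irx3, Irx5 and Irx6 in the other. Irx4 is a classical ventricular marker, and Irx3 and Irx5 shape conduction and repolarisation. Prdm16 encodes a zinc finger regulator of the compact ventricular wall whose loss is linked to noncompaction cardiomyopathy.

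FOG2 summits were assigned to 5 of the 10 genes, namely Nr2f2, Irx1, Irx4, Irx5 and Prdm16. None were assigned to Nr2f1, Hey1, Hey2, Irx2 or Irx3. Over all protein-coding genes the share with a summit was 13.5%. The members differ from most genes in how much sequence surrounds them. Their territories ran from 55 kb for Hey1 to 343 kb for Prdm16, against a median of 44 kb over all genes. Genes in the same deciles of territory had a summit in 7.77% (that of Hey1), 18.1% (Nr2f1 and Hey2), 29.1% (Nr2f2, Irx3 and Irx4) and 52.8% (Irx1, Irx2, Irx5 and Prdm16) of cases. Of the members 3 had 2 or more summits (Irx1, Irx4 and Prdm16), as did 4.3% of all genes. These 3 had territories of 205, 135 and 343 kb, and no such share was computed for genes of like territory. At the density over all territories, the members' territories together would hold 4.41 summits, and they held 11.

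Few FOG2 peaks anywhere in the list lay at start sites. The reference promoter table, with windows of 250 bases before to 50 after a start, held 7 of the 10 members (not Hey1, Irx1 and Irx5) in 8 windows. A peak overlapped 0 of these 8 windows and 0.42% of all windows in the table, so the 0 does not set the members apart. Among all peaks 1.99% overlapped a promoter window. The summit closest to a listed start lay 17.01 kb from that of Irx4, and the next closest lay 29.996 kb from that of Hey2 and 39.2 kb from that of Nr2f2. The 250 bases before the start are printed for Nr2f2, Hey2 and Prdm16, the atrial, ventricular and intragenic cases of the results below, from RefSeq on GRCm38.p6, 5′ to 3′ on the minus strand. Capitals mark a GATA motif (AGATAA or AGATAG and likewise TGATAA or TGATAG), a T-box motif (AGGTGT), an NKX2-5 motif (AAGTG) or the CACGTG element bound by bHLH repressors, each searched on both strands. These motifs do not contain one another.
Nr2f2, chr7:70366747-70366996: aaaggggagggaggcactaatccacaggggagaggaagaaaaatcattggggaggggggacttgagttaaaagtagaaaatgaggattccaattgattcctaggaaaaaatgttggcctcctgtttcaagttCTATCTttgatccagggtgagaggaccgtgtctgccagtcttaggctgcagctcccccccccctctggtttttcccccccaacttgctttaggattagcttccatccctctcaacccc
Hey2, chr10:30842784-30843033: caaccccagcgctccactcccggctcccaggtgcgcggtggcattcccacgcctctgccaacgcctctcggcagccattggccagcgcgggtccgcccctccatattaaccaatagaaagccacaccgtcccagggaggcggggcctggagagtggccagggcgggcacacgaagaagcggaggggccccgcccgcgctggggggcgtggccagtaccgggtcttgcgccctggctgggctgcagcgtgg
Prdm16, chr4:154636874-154637123: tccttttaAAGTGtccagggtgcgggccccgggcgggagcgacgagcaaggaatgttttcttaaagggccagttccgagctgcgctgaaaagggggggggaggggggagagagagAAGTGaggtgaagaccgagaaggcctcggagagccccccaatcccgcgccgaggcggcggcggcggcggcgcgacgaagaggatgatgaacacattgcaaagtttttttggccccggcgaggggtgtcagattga

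The Nr2f2 window held 1 GATA motif, which reads CTATCT on the printed strand, and 26.5% of all 32851 promoter windows of 250 bases held one or more. The Prdm16 window held 2 NKX2-5 motifs, an element that 40.7% of all windows held. The Hey2 window had no match to any of the 4 motifs and a GC content of 71.6%, against a median of 52.4% over all windows. Motifs under the peaks themselves were not analysed here, because the genome sequence was not among the references used.

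On the atrial side, Nr2f2 had 1 summit and it was the strongest of the 11 by fold. The peak spanned chr7:70405793-70406196 (mm10), 404 bp, with its summit 39.2 kb upstream of the annotated start of Nr2f2. Its fold was 20.5, on 32 fragments (21.9 to 45.2) over a control level of 0.608, and it ranked 168th of 6166 by fold. It lay inside the noncoding gene B130024G19Rik (chr7:70365383-70411146), a lncRNA that covers the start site of Nr2f2 and is nearer to the summit when genes of every biotype are used. Nr2f1 had no summit assigned to it. The single summit within 100 kb of Nr2f1 lay 87.2 kb away inside the neighbouring gene Fam172a, at 5.90-fold with 11 fragments (5.49 to 19.7).

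On the ventricular side, 3 of 6 genes had a summit, and these were Irx1, Irx4 and Irx5. Irx1 had 2. The stronger, at chr13:71876330-71876994, was 81.4 kb from the gene at 12.6-fold with 19 fragments (11.4 to 29.7). The other, at chr13:72023701-72023926 on the far side of the gene, was 60.1 kb away at 5.82-fold, also with 19 fragments. The equal fragments and unequal folds follow from the control levels, which were 0.588 and 2.43.

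Irx4, the ventricular marker of the family, had 3 summits. A pair lay 1.04 kb apart upstream of the gene, at chr13:73170290-73171157 (8.12-fold, 17 fragments, 9.90 to 27.2) and chr13:73171386-73171555 (4.66-fold, 8 fragments, 3.45 to 15.8), 89.1 and 88.1 kb from the gene body. The third was the summit nearest to any member outside Prdm16, 7.89 kb beyond the 3′ end of Irx4 at chr13:73277370-73277539, with a fold of 4.95 on 16 fragments (9.15 to 26.0). When genes of every biotype were used, it alone stayed assigned to Irx4. Beyond it, 29.4 kb from Irx4 and nearer to Ndufs6, a subunit gene of respiratory complex I, lay a stronger peak of 14.5-fold with 40 fragments (28.6 to 54.5). The mitochondrial ribosomal gene Mrpl36 took a further summit within 100 kb of Irx4, at 8.70-fold. Irx5 had a single summit 33.1 kb away at chr8:92394383-92394659, at 7.22-fold with 15 fragments (8.40 to 24.7).

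Prdm16 differed from the other members in holding its summits inside the gene. All 4 lay in the gene body, from 134 to 243 kb downstream of the listed start. The strongest, at chr4:154393461-154394102, was 12.8-fold on 43 fragments (31.1 to 57.9), the most fragments of any of the 11 summits. The others had folds of 6.93, 6.84 and 4.21 on 10, 10 and 8 fragments. Prdm16 spans 321 kb, while the other members span 3.14 to 14.8 kb, and its territory would hold 0.864 summits at the mean density. None of the other 7 assigned summits was inside a gene body of a member. Among all assigned summits 60.2% were inside the body of their gene.

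Of the 11 summits 3 reached 10-fold, at Nr2f2, Irx1 and Prdm16, and 16.9% of all peaks did. As genes, 3 of 10 members had a summit of at least 10-fold, against 3.01% of all protein-coding genes. The territories of these 3 were 186 kb (Nr2f2), 205 kb (Irx1) and 343 kb (Prdm16), against a median of 44 kb. No share at 10-fold was computed for genes of like territory. By fragments the order changed at the top, since Prdm16 (43 fragments) stood above Nr2f2 (32), with overlapping intervals. The interval of the Nr2f2 summit overlapped those of all 6 ventricular summits except the weaker one of the Irx4 pair. The plot of fragments by summit shows how far these intervals overlap.

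**Figure D1:**
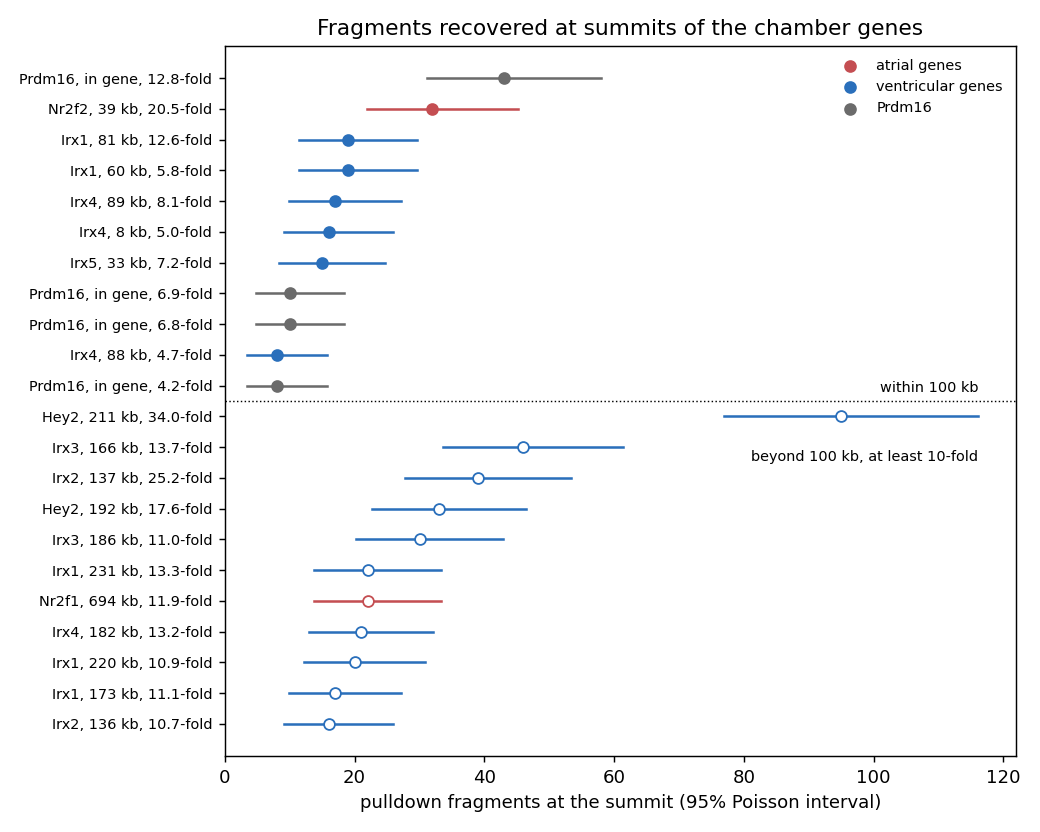
Pulldown fragments recovered at each summit (points) with exact 95% Poisson intervals (bars), by gene, distance from the gene body and fold. Filled points are the 11 summits within 100 kb, led by Prdm16 with 43 and Nr2f2 with 32 fragments, and open points are the 11 summits of at least 10-fold that lie farther from their nearest gene, led by Hey2 with 95.

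The contrast between atrial and ventricular genes was made on counts set side by side, because 2 genes and 6 genes are not replicates of a chamber. The Nr2f genes had 1 summit in 0.307 Mb of territory, and Hey2 with the Irx genes had 6 in 1.04 Mb, or 3.26 and 5.75 per Mb. The mean over all territories was 2.52 per Mb. The 1 atrial summit had a fold of 20.5, and the 6 ventricular summits had folds from 4.66 to 12.6 with a median of 6.52, against a median of 6.38 over all assigned summits. With a single atrial summit no difference in strength or density between the sides can be stated.

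The limit of 100 kb left out most of the FOG2 binding around these genes. The last summits inside it lay 89.1 kb from Irx4 and 81.4 kb from Irx1, and the first outside it lay 135 kb from Irx2 and 138 kb from Nr2f2. With no limit, 38 summits had a member as their nearest protein-coding gene, 27 of them at 135 to 694 kb, and 9 of the 10 genes had one or more. The same step raised the share of all genes with a summit from 13.5% to 15.3%, and 23.7% of all peaks had no gene within 100 kb. Of these 27 more distant summits 11 reached 10-fold, against 16.9% of all peaks. Their median fold was 8.12, against 6.93 for the 11 within 100 kb and 6.39 over all peaks. No share at 10-fold was computed for all peaks that had no gene within 100 kb. Hey1 alone was the nearest gene to no summit at any distance. The summit closest to Hey1 lay 227 kb away and was assigned to Mrps28, at 9.02-fold.

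**Figure D2:**
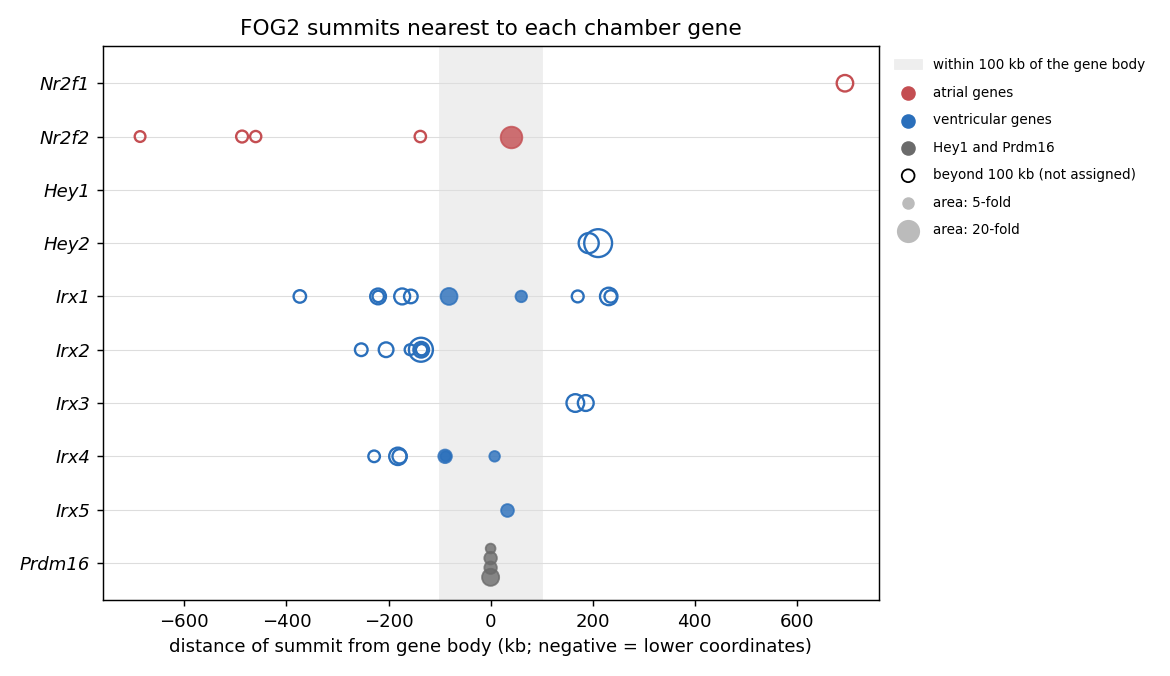
Distance of each summit from the body of its nearest member (x axis, kb, negative towards lower coordinates), 1 line per gene, with point area proportional to fold. Filled points are the 11 summits within 100 kb (grey band) and open points the 27 beyond it. Of the open points 22 are nearest to Hey2 or an Irx gene, most of them to Irx1 and Irx2, and 5 to an Nr2f gene. Irx5 has no open point, and Hey1 has no point at all.

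Hey2, the ventricular Notch effector, had no summit assigned to it within 100 kb, and of the 27 summits beyond that limit the strongest was nearest to Hey2. A peak at chr10:31053171-31053728, 211 kb upstream of the start of Hey2, had a fold of 34.0 on 95 fragments (76.9 to 116). It ranked 34th of all 6166 peaks by fold and 18th by fragments. Its interval lay above those of all 11 assigned summits. A second peak 18.5 kb nearer to the gene, at chr10:31034777-31035263, had a fold of 17.6 on 33 fragments (22.7 to 46.3). Both lay inside the lncRNA gene Gm30676. The stretch of 471 kb between Hey2 and Hddc2 held 4 further summits, assigned to Hddc2 at 39.9 to 84.0 kb, the strongest at 26.3-fold on 58 fragments (44.04 to 74.98). The stretch thus held 6 summits, or 12.8 per Mb, and 3 of the 6 reached 10-fold, against 16.9% of all peaks. The only summit within 100 kb of Hey2, at 19.6 kb on its other side, was nearer to Ncoa7 and weaker, at 5.18-fold.

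The cluster of Irx1, Irx2 and Irx4 held the most summits of the loci, though the stretch from Hey2 to Hddc2 was denser, at 12.8 per Mb. Between Adamts16 and Ndufs6, 2478 kb with no other protein-coding gene, lay 28 summits, or 11.3 per Mb. Of these 8 reached 10-fold, against 16.9% of all peaks. Irx1, Irx2 and Irx4 were the nearest gene for 10, 7 and 6 of the 28, and Adamts16 or Ndufs6 for the rest. Stretches of at least 400 kb between protein-coding genes carried 1.99 summits per Mb over all 809 of them. The stretch between Irx1 and Irx2 held 11 summits in 661 kb (16.6 per Mb). That was the 4th highest number among 19442 stretches of any length and the 4th highest density among those of at least 400 kb. Both ranks count each summit, and some of the 11 lay within 10 kb of another. No rank was computed with such summits counted once. The stretch between Adamts16 and Irx1 held 10 in 1116 kb, and the one between Irx2 and Irx4 held 5 in 625 kb.

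Irx2 had no summit within 100 kb, and all 7 summits nearest to it lay 135 to 253 kb upstream of it. A group of 4 fell within chr13:72487543 to 72489519. Their folds, in order along the chromosome, were 25.2, 10.7, 5.67 and 6.30, on 39 (27.7 to 53.3), 16, 8 and 9 fragments. The control level was 0.588 at each of the 4, the lowest value in the list. The 25.2-fold peak ranked 95th of 6166 by fold. Irx1 had 8 summits beyond 100 kb, the strongest at chr13:72194914-72195306, 231 kb away at 13.3-fold with 22 fragments (13.8 to 33.3). A run of 3 summits 173 to 220 kb on the other side of Irx1, at 10.9-, 5.67- and 11.1-fold, lay in the lncRNA gene Gm40999. Irx4 had 3 more, the strongest 182 kb upstream at 13.2-fold with 21 fragments. Of the 28 summits of the locus, 12 had another within 10 kb, against 18.6% of all summits.

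The cluster of Irx3 and Irx5 carried fewer. Between Fto and Irx6, 1006 kb, lay 4 summits, or 3.98 per Mb. Irx3 had none assigned within 100 kb and a pair upstream, at 166 kb (chr8:91967310-91967991, 13.7-fold, 46 fragments, 33.7 to 61.4) and 186 kb (chr8:91987970-91988219, 11.0-fold, 30 fragments, 20.2 to 42.8). The fourth summit, 47.5 kb from Fto and 82.6 kb from Irx3, was assigned to Fto at 9.02-fold with 19 fragments. Irx6, the remaining gene of this cluster, had 1 summit on its far side, at 6.93-fold.

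**Figure D3:**
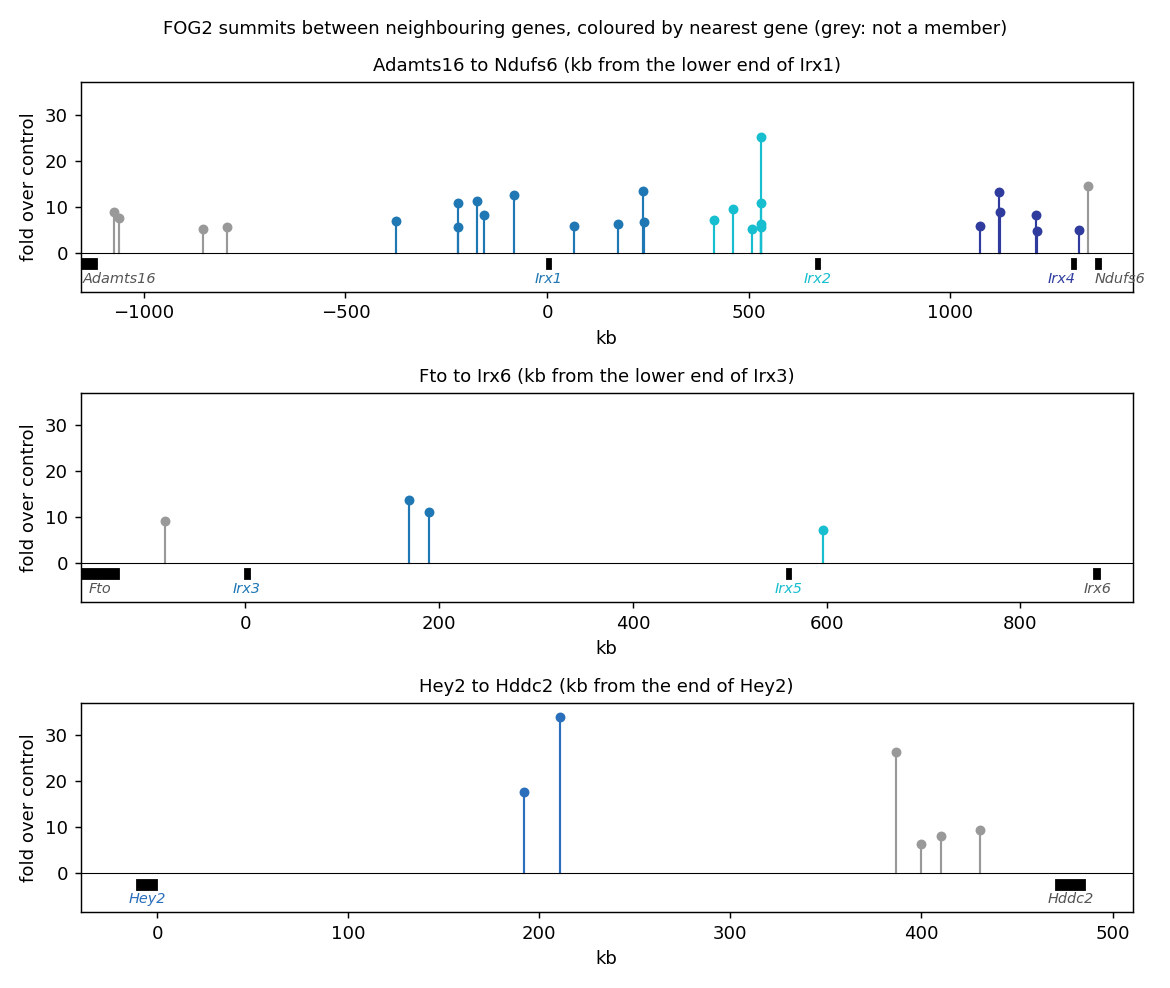
Fold over control (y axis) of each summit along 3 stretches, in kb from the named gene end (x axis), with genes as black boxes and colours showing the nearest gene (grey where it is not a member). The stretch from Adamts16 to Ndufs6 holds 28 summits, that from Fto to Irx6 holds 4, and that from Hey2 to Hddc2 holds 6, of which the highest is 34.0-fold.

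The 2 atrial genes differed from each other. On the 5′ side of Nr2f1 lie 2685 kb without a protein-coding gene, which held 2 summits, or 0.745 per Mb. The one nearest to Nr2f1 lay 694 kb away at 11.9-fold with 22 fragments (13.8 to 33.3). On the 3′ side of Nr2f2 lie 1603 kb with 4 summits (2.50 per Mb), at 138 to 687 kb, with folds of 5.04 to 6.22 on 7 to 9 fragments. On its 5′ side, the 142 kb up to Gm44812 held 2 summits, the 20.5-fold one among them, or 14.0 per Mb. With no limit the Nr2f genes had 6 summits in 2.25 Mb (2.67 per Mb) and Hey2 with the Irx genes had 28 in 2.94 Mb (9.53 per Mb), while the mean over the genome was 2.37 per Mb. The values of single genes overlapped, at 0.733 per Mb for Nr2f1 and 5.64 for Nr2f2 against 2.28 for Irx5, 5.78 for Irx3 and up to 17.2 for Irx4. When summits of 1 gene within 10 kb of each other were counted once, the atrial count stayed at 6 and the ventricular count fell from 28 to 21. Of the ventricular summits 11 of 28 reached 10-fold, and of the atrial summits 2 of 6, against 16.9% of all peaks. Strand was listed for all of these genes except Irx1 and Irx5. Among summits of the others, 16 of 17 ventricular summits lay upstream of the start and 2 of 6 atrial ones did. The room downstream and upstream, up to the next protein-coding gene, was 24.7 and 471 kb for Hey2. It was 50.3 and 625 kb for Irx4, and 130 and 556 kb for Irx3. For Irx2 it was 625 and 661 kb, for Nr2f1 22.7 and 2685 kb, and for Nr2f2 1603 and 142 kb. Direction thus cannot be told apart from this spacing at most of these genes. The difference between atrial and ventricular genes was not tested, since it rests on 2 loci against 3.

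**Figure D4:**
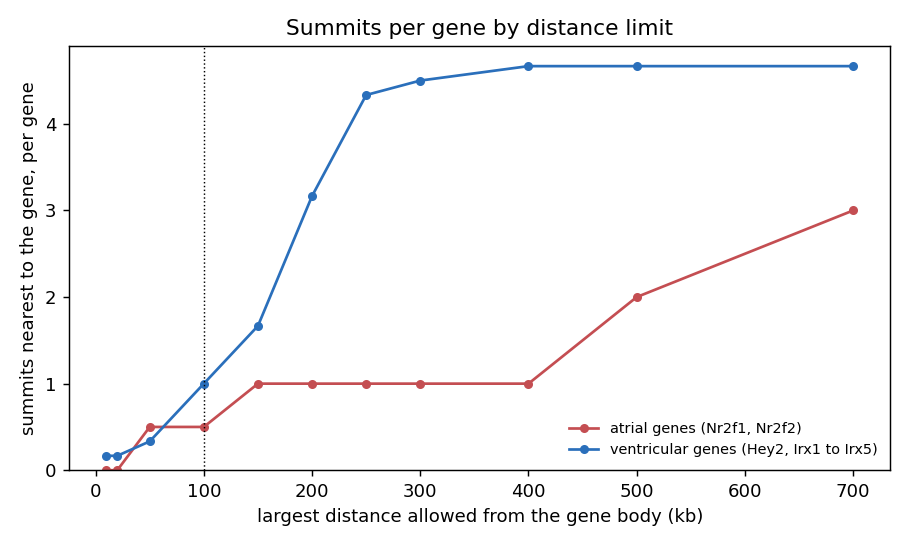
Summits nearest to the gene, per gene (y axis), as the distance allowed from the gene body (x axis, kb) grows, for the 2 atrial and the 6 ventricular genes. At 100 kb (dotted line) the values are 0.5 and 1 summits per gene, and at 250 kb they are 1 and 4.33.

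Other genes of the chamber programmes were described in the same way from lists chosen for this report. Their counts stand beside a share of 13.5% of all protein-coding genes with a summit, and all 4 lists had larger territories than the 44 kb median, at medians of 72 kb (atrial), 84.5 kb (ventricular), 165 kb (Notch and boundary) and 192 kb (relatives). Of 16 atrial chamber genes 10 had a summit, with a median fold of 6.97 over their 18 summits. Bmp10, a ligand of trabecular and atrial muscle, had the strongest (12.49-fold, 27 fragments), followed by the vessel growth factor gene Angpt1 (9.83-fold), Tbx5 (8.70-fold) and the natriuretic peptide gene Nppb (7.97-fold). Of 16 ventricular chamber genes 12 had a summit, with a median fold of 6.77 over 27 summits. They were led by Nkx2-5, a core cardiac homeobox gene (22.1-fold, 44 fragments), Fhl2 (12.4-fold), the muscle methyltransferase gene Smyd1 (12.0-fold) and Hopx (10.8-fold). The median over all assigned summits was 6.38, and these lists share genes with the markers given above. Nkx2-5 and Myh7 of the ventricular list also stand among the cardiomyocyte markers, so its counts are not specific to ventricles.

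Of 13 genes of the Notch pathway and the atrioventricular boundary, which act around Hey1 and Hey2, 6 had a summit, and 2 did when genes of any biotype could take a summit. Mib1, the ubiquitin ligase that activates Notch ligands, had the strongest (22.1-fold, 60 fragments), followed by Tbx3, a repressor of chamber genes (19.7-fold), and Rbpj, the DNA-binding partner of Notch (8.76-fold). No summit was assigned to Notch1, Notch2, Jag1, Jag2, Dll4, Heyl or Tbx2. Of 14 relatives and partners of the members 9 had a summit, among them Mecom, the closest relative of Prdm16, with 6 summits (strongest 8.02-fold), and the retinoid receptor genes Rxra with 4 (9.34-fold) and Rarb with 5 (6.497-fold). Smad3 had 2 (9.45-fold). The nearest gene need not be the gene on which a site acts, and no expression was measured in these samples.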

How the data were processed

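Chromatin pulled down with biotinylated FOG2 from E12.5 mouse ventricles (2 libraries) and input (1 library) was analysed from a single peak list deposited by the authors, made on the pooled pulldown and filtered against blacklisted regions, per the file headers (file and peak names). The build mm10 and the tools Bowtie2 2.3.2, SAMtools 1.5, Picard and MACS2 2.1.1 come from the submitters' processing notes, with no settings stated. For each summit the authors' list gives the fold, a linear ratio over control, and −log10 of the p- and q-value. A display score in the authors' list repeats the q-value (6166 of 6166 peaks) and was left aside.

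Python 3.11.15, numpy 2.4.6, pandas 2.3.3 and scipy 1.17.1 were used. Summits were assigned to the nearest of 21631 RefSeq protein-coding gene bodies (GRCm38.p6) within 100 kb, and nested genes by their nearest end. Territories were measured on a 1 kb grid. Fragments were solved from fold and −log10 p with a Poisson tail and 1 added to both sides. A whole number matched within 0.001 at every peak, and in 83 peaks more than one did. Assignment and recovery were tested on simulated data. The library depths are unknown, since the list gives no totals. All comparisons are descriptive. The members and lists were chosen with earlier results of these data known. The stretches between genes were added after the values were seen. Genes named with values were all members, genes among the 6 of highest fold in each list, and neighbours that took a summit within 100 kb of a member. Outside that rule, Hddc2, Mrps28, the other genes that bound a stretch, the lncRNA genes and the Notch list's genes without a summit were named after the values were seen. The alternatives changed the set of peaks, the distance limit, the gene set, the distance measure and the assignment.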

Additional observations from a re-analysis of the deposited data

How the results depend on the processing

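The counts depended mainly on how far a summit may lie from a gene. With a limit of 20 kb, 2 members had a summit, with 5 summits in all, 0 atrial and 1 ventricular. Within 250 kb the numbers were 8 members and 32 summits, 2 atrial and 26 ventricular, and with no limit 9 members and 38 summits, 6 atrial and 28 ventricular. Counting every peak within 100 kb of a member gave 8 members, with 2 atrial and 10 ventricular summits. In the upper 50% of peaks by fold 7 summits remained assigned, 3 of them ventricular. With genes of any biotype the atrial count was 0 and the Notch list had 2 genes with a summit. With the nearest gene end as the measure, 1 summit in place of 4 lay inside its member. By recovered fragments in place of fold, the leading summit was that of Prdm16 (12.8-fold). The other values for these counts, 73 over the alternatives, stayed within 1.5 times the main value. They include those with summits within 10 kb counted once, an alternative chosen after seeing the data, and the ventricular count of 4 with genes of any biotype. Among values for single genes and strongest summits, 31 moved and 116 did not. Irx4 had 1 summit in place of 3 with genes of any biotype, and likewise with peaks of at least 5-fold. No paired analysis was possible because the list pools the replicates, and for the same reason no replicate could be left out. Depth limits single summits, since those on 8 to 19 fragments have overlapping intervals and cannot be ranked.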
